A study of Mus musculus with 6 samples.

Results

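RNA was sequenced from healing flexor digitorum longus (FDL) tendons, and the transcripts described here are those of insulin-like growth factor 1, its receptors and the IGF-binding proteins. The 9 genes are Igf1, Igf1r, Igf2r, Igfbp2, Igfbp3, Igfbp4, Igfbp5, Igfbp6 and Igfbp7. They were taken by symbol from the 53819 genes listed in the count table, by a rule that sets no threshold on a measured value, and all 9 were among the 17496 genes with enough counts to be tested. There were 3 DTR and 3 WT libraries, each made from 1 tendon as a biological sample of its own. DTR mice were Scx-Cre+; DTR F/+, in which a Cre driven by Scleraxis (Scx) removes a stop cassette from a diphtheria toxin receptor at the Rosa locus. WT mice were Scx-Cre-; DTR F/+ littermates, so that both groups carried the receptor allele and only DTR mice could express it in Scx-lineage cells. The Cre was not inducible, so the targeted pool held every cell with a history of Scx expression and not a defined adult subset. Both groups underwent FDL transection and repair at 10 to 12 weeks of age and received 5 daily injections of diphtheria toxin (DT), from day 14 to day 18 after surgery. Tendons were harvested at day 28 after surgery, 10 days after the last injection, so the comparison asks how transcripts stood after the injections and not during them. In the sample titles day 28 is dated from depletion instead, while the extraction protocol and the study's methods count them from surgery, and the time from surgery is used here.

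IGF1 is a secreted peptide that binds IGF1R, a receptor tyrosine kinase that signals through insulin receptor substrates to the PI3K, AKT and mTOR pathway and promotes cell growth, survival and protein synthesis. In tendon, IGF1 is known as a stimulus for fibroblast proliferation and collagen synthesis. IGF-binding proteins hold IGFs outside the cell, prolong their life, limit their access to the receptor and release them when cleaved by proteases such as PAPP-A. IGF2R, the cation-independent mannose 6-phosphate receptor, takes up IGF2 for degradation and does not carry the IGF1 growth signal.

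The 6 binding proteins differ at the cysteine-rich signature of their IGF-binding domain. The coding bases of this stretch are shown because Igfbp6 and Igfbp7 differ there from Igfbp2, Igfbp3, Igfbp4 and Igfbp5. Each sequence below covers 16 codons (48 bases) of exon 1 on the coding strand in GRCm38, read 5′ to 3′ through the GENCODE vM21 gene models, with cysteine codons in capitals.
Igfbp2: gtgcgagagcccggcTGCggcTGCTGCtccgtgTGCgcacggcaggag
Igfbp3: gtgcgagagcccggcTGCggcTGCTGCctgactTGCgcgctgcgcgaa
Igfbp4: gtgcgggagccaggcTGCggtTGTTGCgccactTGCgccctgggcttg
Igfbp5: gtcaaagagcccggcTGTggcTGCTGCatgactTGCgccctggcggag
Igfbp6: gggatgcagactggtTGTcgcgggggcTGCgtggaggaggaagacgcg
Igfbp7: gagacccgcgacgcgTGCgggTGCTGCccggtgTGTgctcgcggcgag
Igfbp2, Igfbp3, Igfbp4 and Igfbp5 held 4 cysteine codons, 2 of them adjacent, and matched the full signature, in which codons for glycine, cysteine, glycine, cysteine and cysteine are followed by any 2 codons and a further cysteine codon. The Igfbp6 stretch, placed by alignment to Igfbp5, held 2 cysteine codons and no adjacent pair. The Igfbp7 stretch, placed in the same way, held all 4 cysteine codons of the signature, with the adjacent pair. It differed from the full signature only at the first codon, gcg for alanine in place of glycine. IGFBP7 is known to bind IGFs with low affinity, and IGFBP6 to prefer IGF2 over IGF1. Whether these codons bear on binding was not tested.

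These stretches lie at chr1:72824766-72824813 on the + strand for Igfbp2, chr11:7213554-7213601 on the - strand for Igfbp3, chr11:99041638-99041685 on the + strand for Igfbp4, chr1:72873954-72874001 on the - strand for Igfbp5, chr15:102144653-102144700 on the + strand for Igfbp6 and chr5:77407814-77407861 on the - strand for Igfbp7. Igfbp2 (chr1:72824503-72852474, + strand) and Igfbp5 (chr1:72857932-72874884, - strand) are neighbours that point towards each other. Igf1 spans chr10:87858265-87937042 on the + strand, Igf1r spans chr7:67952827-68233668 on the + strand, and Igf2r spans chr17:12682406-12769664 on the - strand. The antisense gene Igf1os held between 33 and 67 counts in a library, against between 46390 and 71104 for Igf1.

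Libraries held between 42744138 and 48854310 counts on genes. Tendon markers were present in every library, and their list of 10 genes took between 2.34% and 2.90% of the counts in WT and between 2.75% and 3.32% in DTR. Scx, the gene whose lineage was targeted, had normalized counts of 2202, 2703 and 3064 (WT) and 3476, 3407 and 3532 (DTR), every DTR library above every WT library, with a fitted log2 difference of 0.39 (SE 0.12; edgeR adjusted p = 0.371). Of the 10 tendon genes, 7 were fitted higher and 3 lower in DTR, 4 lay above without overlap, edgeR called 0 and DESeq2 called 1 (Thbs4, higher). Over all genes tested, 51.5% were fitted higher, 8.96% lay above without overlap, and DESeq2 called 1.12% higher. At this harvest, Scx transcripts were not lower in the depleted group. Skeletal muscle transcripts, a list of 20 genes, took 3.00%, 2.69% and 2.19% of the counts in WT and 0.396%, 2.69% and 0.745% in DTR, so that DTR replicates 1 and 3 stood apart. All 20 were fitted lower in DTR, with 0 called by edgeR, and none was at 0 in all libraries. Keratinocyte transcripts, a list of 10 genes, took 0.310%, 0.192% and 0.00156% in WT and 0.00128%, 0.00172% and 0.0290% in DTR. All 10 were fitted lower in DTR (median -3.24), with 0 called by edgeR. By Xist and Ddx3y counts, WT replicate 2 and DTR replicates 2 and 3 came from females and the other 3 libraries from males.

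Igf1 transcripts did not differ between groups beyond the spread of the libraries. Normalized counts, which are counts scaled by TMM to a library of average size, were 51292, 51974 and 48218 in WT replicates 1, 2 and 3, and 73278, 45926 and 58757 in DTR. The DTR values lay both below and above the narrow WT range. The means were 50494 ± 2001 (WT) and 59320 ± 13685 (DTR; SD, n = 3 each), and the fitted difference (DTR over WT) was 0.23 on the log2 scale (SE 0.18, 95% interval -0.19 to 0.65; edgeR quasi-likelihood adjusted p = 0.640), a fold of 1.17 with an interval of 0.879 to 1.57. It was 0.048 without DTR replicate 1 (edgeR adjusted p = 0.951) and 0.39 without DTR replicate 2 (edgeR adjusted p = 0.259). Fitted differences of all genes are given on this log2 scale, as DTR over WT. The coefficient of variation of Igf1 was 3.96% in WT and 23.1% in DTR, which was not tested. In bulk tissue, fewer cells of a type and less RNA per cell cannot be told apart, and this holds for every value given here.

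**Figure D1:**
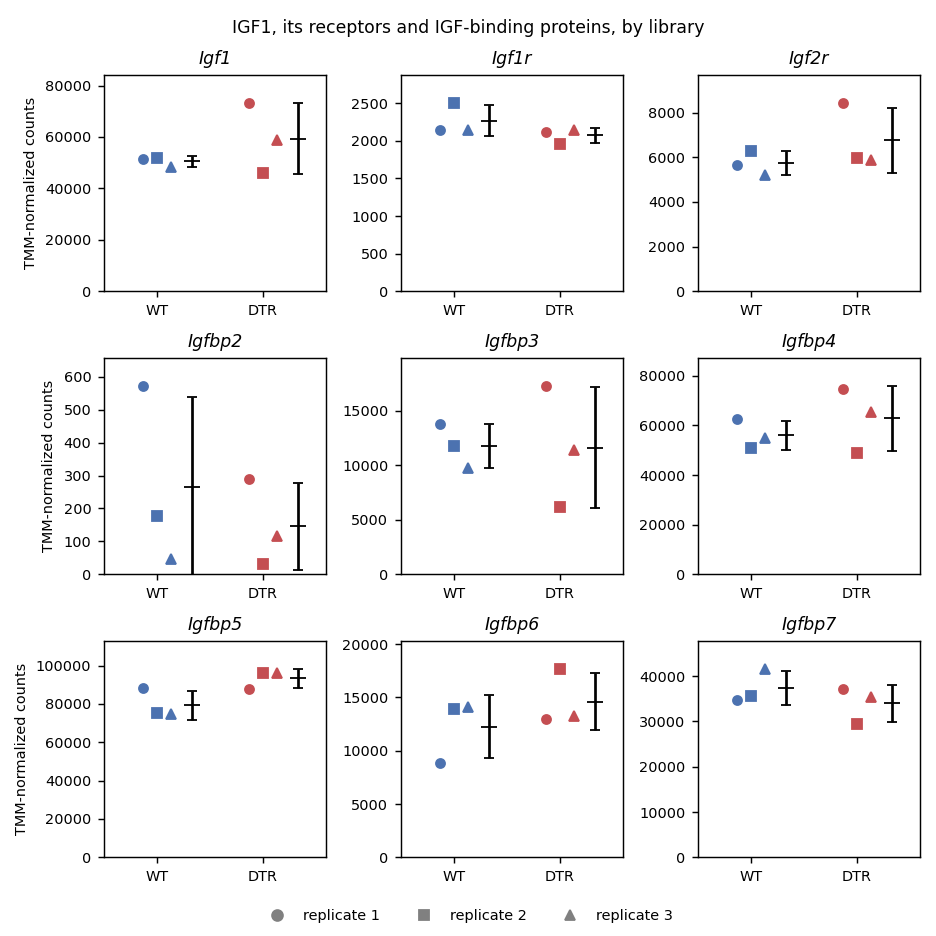
TMM-normalized counts (y axis, linear and from 0, its own scale in each panel) of the 9 genes in the 3 WT (blue) and 3 DTR (red) libraries. Marker shape gives the replicate number, and the black bar beside each group is the mean ± SD, cut at 0 for Igfbp2 in WT. DTR replicate 1 is the highest library for Igf1, Igf2r, Igfbp3 and Igfbp4. DTR replicate 2 is the lowest for Igf1, Igf1r, Igfbp2, Igfbp3, Igfbp4 and Igfbp7.

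Across the 9 genes, none was called by edgeR at an adjusted p under 0.05, against 0 of all 17496 genes tested, which is 0%. Without DTR replicate 2, edgeR called 544 genes, and none of the 9 was among them. DESeq2 called 0 of the 9 as well, while it called 1.12% of 17564 genes higher and 1.53% lower in DTR. At an unadjusted edgeR p under 0.05, 0 of the 9 passed in either direction, against 5.52% of all genes higher and 5.45% lower. The fit gave 5 of the 9 higher in DTR and 4 lower with a median of 0.17, beside a median of 0.0082 over all genes tested.

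The receptors also stayed within the spread of the libraries or at its edge. Igf1r, the signalling receptor, had normalized counts of 2149, 2506 and 2146 (WT) and 2115, 1963 and 2145 (DTR). Every DTR value was below every WT value, but DTR replicate 3 and WT replicate 3 were nearly equal. In the fit, the difference was -0.13 (SE 0.093, 95% interval -0.34 to 0.088; edgeR adjusted p = 0.618). Igf1r was the 1 gene of the 9 whose groups did not overlap, where 7.85% of all genes had every DTR library below every WT library and 8.96% had every DTR library above. Under DESeq2 size factors, RLE, upper quartile or library size scaling, its groups overlapped. They also overlapped with TMM when every library had to hold at least 10 counts, or when muscle and keratinocyte genes were removed.

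Igf2r, the IGF2-clearing receptor, had normalized counts of 5675, 6282 and 5213 (WT) and 8439, 5954 and 5884 (DTR). DTR replicate 1 was higher than the other 5 libraries, and DTR replicates 2 and 3 were within the WT range. The difference was fitted at 0.24 (SE 0.16, 95% interval -0.12 to 0.60; edgeR adjusted p = 0.580), and without DTR replicate 1 it was 0.044.

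Among the binding proteins, Igfbp5, Igfbp4 and Igfbp7 had the largest counts, and none differed between groups by the test. Igfbp5, a matrix-associated binding protein, had normalized counts of 88074, 75187 and 74567 (WT) and 87532, 95993 and 96294 (DTR). DTR replicates 2 and 3 were above all WT libraries, and DTR replicate 1 was just below WT replicate 1. By the fit, the log2 difference was 0.23 (SE 0.13, 95% interval -0.079 to 0.55), with an adjusted p of 0.533 by edgeR, the smallest of the 9 genes, and 0.381 by DESeq2.

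Igfbp4, a soluble inhibitor of IGF action that is cleaved by PAPP-A, had normalized counts of 62429, 50960 and 54827 (WT) and 74519, 48757 and 65409 (DTR). DTR replicates 1 and 3 were above the WT range and DTR replicate 2 below it. The fitted difference was 0.17 (SE 0.18, 95% interval -0.26 to 0.59; edgeR adjusted p = 0.756). It was 0.022 without DTR replicate 1 and 0.32 without DTR replicate 2.

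Igfbp7, the low-affinity member also found around blood vessels, had normalized counts of 34790, 35709 and 41585 (WT) and 37071, 29459 and 35393 (DTR). The groups overlapped, with WT replicate 3 highest and DTR replicate 2 lowest. In the fit, the difference was -0.14 (SE 0.14, 95% interval -0.46 to 0.18; edgeR adjusted p = 0.729).

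Igfbp6 had normalized counts of 8838, 13875 and 14073 (WT) and 12940, 17672 and 13213 (DTR). WT replicate 1 was the lowest library and DTR replicate 2 the highest, while the other 4 lay between 12940 and 14073. The difference was fitted at 0.25 (SE 0.21, 95% interval -0.24 to 0.75; edgeR adjusted p = 0.665), and without WT replicate 1 it was 0.065.

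Igfbp3, the main carrier of circulating IGF1, had normalized counts of 13809, 11779 and 9772 (WT) and 17293, 6163 and 11370 (DTR). DTR libraries held both the highest and the lowest value, and the coefficient of variation was 17.1% in WT and 48.0% in DTR. The group means were nearly equal, with a fitted difference of -0.022 (SE 0.38, 95% interval -0.97 to 0.93; edgeR adjusted p = 0.987). The interval runs from a fold of 0.509 to a fold of 1.91, so differences within that range are not excluded by these libraries. The sign turned with single libraries: without DTR replicate 2 the value was 0.28, and without DTR replicate 1 it was -0.43.

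Igfbp2 was the least abundant and the most variable of the 9 genes, with normalized counts of 572, 176 and 46.8 (WT) and 290, 30.6 and 116 (DTR). The highest library had 18.7 times the counts of the lowest, and each group held both a high and a low library. By the fit, the log2 difference was -0.87 (SE 1.19, 95% interval -3.97 to 2.24; edgeR adjusted p = 0.823), and without WT replicate 1 it was 0.38. Among the other 8 genes, the ratio of the highest to the lowest library lay between 1.28 (Igf1r) and 2.81 (Igfbp3).

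**Figure D2:**
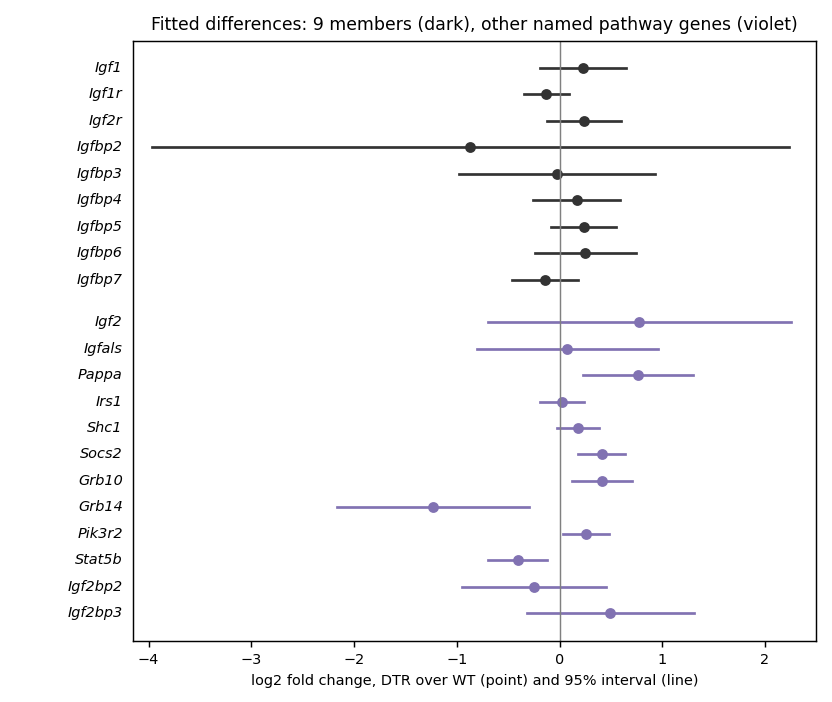
Fitted log2 fold change, DTR over WT (x axis), with its 95% interval for the 9 genes (dark) and for 12 other IGF pathway genes (violet). The interval of each of the 9 genes includes 0 and is widest for Igfbp2, from -3.97 to 2.24, while those of Pappa, Socs2, Grb10, Grb14, Pik3r2 and Stat5b exclude it before adjustment.

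Levels of different genes were compared as normalized counts per kb of the union of annotated exons, averaged over the 6 libraries. Igfbp7 was highest at 29502 ± 3233 (SD, n = 6) and was above the next gene in all 6 libraries. Igfbp5, at 14365 ± 1596, Igfbp4, at 13470 ± 2217, and Igfbp6, at 12082 ± 2543 (SD, n = 6), were not separated by their spread. Igfbp5 was above Igfbp4 in 4 libraries, and Igfbp4 was above Igfbp6 in 3. Igf1 followed at 5544 ± 1009 and Igfbp3 at 3737 ± 1197 (SD, n = 6), in that order in all 6 libraries. The receptors were lower, with Igf2r at 671 ± 122 and Igf1r at 129 ± 10.7 (SD, n = 6). Igfbp2, at 111 ± 110 (SD, n = 6), was below Igf1r in 4 of the 6 libraries. The top of this order depends on the length used. Per coding base, Igf1 ranked 1, Igfbp5 ranked 2, Igfbp4 ranked 3 and Igfbp7 ranked 4 of 9. The annotated exons of Igf1 span 9904 bases and its coding part 477, against 1209 and 939 for Igfbp7.

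Per kb of annotated exon, Igfbp7 held the largest share of the binding protein transcripts in all 6 libraries, an order that did not hold per coding base. It made up 43.0% ± 2.53 (SD, n = 3) of the summed IGFBP counts per kb in WT and 37.5% ± 2.00 (SD, n = 3) in DTR. The share was between 41.0% and 45.8% in WT and between 35.2% and 38.7% in DTR, without overlap. The two-sided exact permutation p was 0.1, and 0.7 after Benjamini-Hochberg adjustment over the 6 shares and the ratio described next. As 0.1 is the smallest that 3 against 3 libraries allow, no share or ratio could pass 0.05. These p values are therefore a description. The 6 shares are parts of the same sum, so they do not vary separately. The share was smaller with coding lengths (16.5% in WT and 13.5% in DTR) and without a length (19.0% and 15.7%), and lower in DTR in both. Igfbp5 made up 18.4% ± 2.21 in WT and 20.9% ± 2.38 in DTR, Igfbp4 17.7% ± 2.08 and 18.9% ± 2.71, Igfbp6 15.3% ± 3.52 and 17.8% ± 4.52, Igfbp3 5.27% ± 1.06 and 4.87% ± 2.06, and Igfbp2 0.204% ± 0.212 and 0.101% ± 0.0882 (SD, n = 3 each). The groups overlapped for these 5 shares, with exact permutation p between 0.2 and 0.9.

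**Figure D3:**
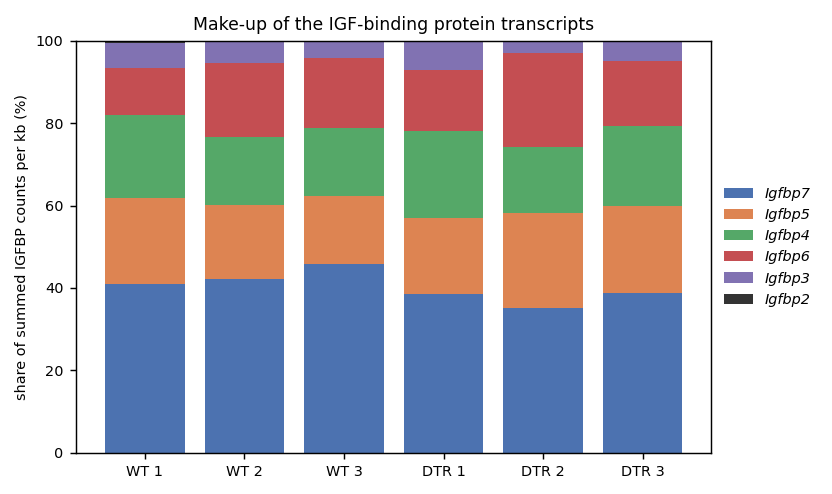
Share of each binding protein gene in the summed IGFBP counts per kb (y axis, %) in each of the 6 libraries (x axis). Igfbp7 (blue, at the base) takes between 41.0% and 45.8% in the WT libraries and between 35.2% and 38.7% in the DTR libraries, and Igfbp2 (black, at the top) is at most 0.441%.

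The summed IGFBP transcripts exceeded Igf1 in every library. The ratio of summed IGFBP to Igf1 counts per kb was 13.6, 13.3 and 15.4 in WT and 10.7, 14.9 and 12.8 in DTR. The groups overlapped, with means of 14.1 ± 1.14 and 12.8 ± 2.10 (SD, n = 3 each) and a two-sided exact permutation p of 0.4. The size of the ratio depends on the length used: its mean over the 6 libraries was 13.5 with annotated exons, 3.82 without a length and 2.25 with coding lengths.

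Igf1 and Igfbp4 varied alike over the libraries, with both extremes among the DTR libraries. On the log2 CPM scale, centred on each gene's mean over the 6 libraries, Igf1 was at -0.080, -0.061 and -0.17 in WT and at 0.43, -0.24 and 0.12 in DTR. Igfbp4 was at 0.086, -0.21 and -0.10 in WT and at 0.34, -0.27 and 0.15 in DTR. Both were highest in DTR replicate 1 and lowest in DTR replicate 2, and the WT libraries lay between. Likeness to Igf1 was measured as the root mean square difference of these centred values over 6 libraries among 14408 genes whose normalized counts averaged 50 or more, and given as a description. Igfbp4 ranked 156 with a difference of 0.10 and Igf2r ranked 299 with 0.12. The others ranked 4697 (Igfbp7), 5400 (Igf1r), 5636 (Igfbp5), 9315 (Igfbp3), 11477 (Igfbp6) and 13998 (Igfbp2). The 5 genes most like Igf1 were Adgra2, at 0.041, Spats2l, at 0.043, Wnt5b, at 0.044, Clip2, at 0.044, and Zfp516, at 0.045.

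**Figure D4:**
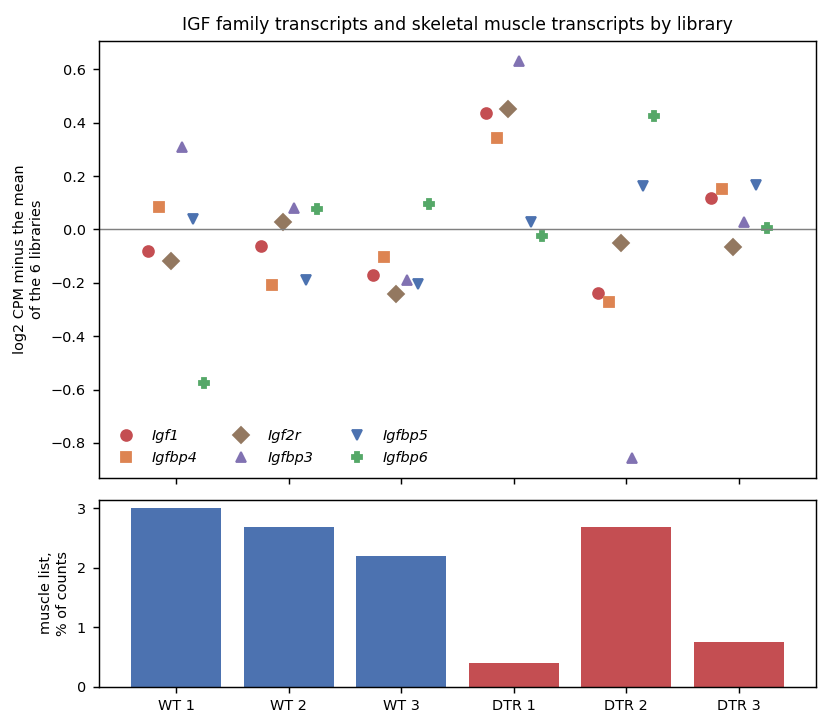
Top, log2 CPM minus the gene's mean over the 6 libraries (y axis) for Igf1, Igfbp4, Igf2r, Igfbp3, Igfbp5 and Igfbp6, with points of a library set slightly apart, and below, the share of counts taken by the 20 skeletal muscle genes (y axis, %) in WT (blue) and DTR (red) libraries. Igf1 and Igfbp4 are highest in DTR replicate 1, where the muscle list is lowest at 0.396%, and lowest in DTR replicate 2, where it is at 2.69%.

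Among the DTR libraries, the order of Igf1, Igfbp2, Igfbp3, Igfbp4 and Igfbp7 was the reverse of the order of the muscle list. DTR replicate 1 was highest for these genes and lowest for muscle, and DTR replicate 2 the opposite. In the WT libraries, muscle was highest in replicate 1 and lowest in replicate 3. There Igfbp7 again had the reverse order, while Igfbp2 and Igfbp3 were ordered in the same way as muscle. Igfbp4 was highest in WT replicate 1 and Igf1 lowest in WT replicate 3. The covariate fit used the mean log2 CPM of the muscle list in each library, not its share of counts. With this covariate, the fitted difference became -0.12 for Igf1 and -0.16 for Igfbp4, in place of 0.23 and 0.17. The fitted difference was 0.029 for Igf2r, -0.87 for Igfbp3 and -2.91 for Igfbp2. It was 0.31 for Igfbp5, 0.44 for Igfbp6, -0.19 for Igf1r and -0.34 for Igfbp7. None of the 9 was called in that fit. The part of muscle tissue in these values beyond these fits was not tested.

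Endothelial, macrophage and mural cell lists, which cover other cells that can hold IGF family transcripts, were within overlapping ranges in both groups. The 12 macrophage genes took between 0.376% and 0.462% of the counts in WT and between 0.409% and 0.447% in DTR. The 10 endothelial genes took between 0.0706% and 0.0898% in WT and between 0.0685% and 0.0810% in DTR. The 10 mural and myofibroblast genes took between 0.199% and 0.287% in WT and between 0.169% and 0.207% in DTR. None of these lists had a gene at 0 in all libraries. The fit gave 6 of 12 macrophage genes, 9 of 10 endothelial genes and 9 of 10 mural genes lower in DTR, with medians of 0.039, -0.13 and -0.30. edgeR called 0 of them, and DESeq2 called 1, Cd163 of the macrophage list, which had normalized counts of 2513, 2714 and 2122 (WT) and 490, 1123 and 944 (DTR), without overlap (DESeq2 adjusted p = 2.7e-06; edgeR adjusted p = 0.293). Lists for Schwann cells (10 genes, between 0.0632% and 0.114% in WT and between 0.0461% and 0.0806% in DTR) and lymphoid cells (10 genes, between 0.0131% and 0.0177% in WT and between 0.0141% and 0.0163% in DTR) overlapped as well. In the Schwann list, DESeq2 called 1 gene higher and 2 lower, and in the lymphoid list 0, beside 1.12% of all genes higher and 1.53% lower.

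Of 61 other genes of the IGF pathway, 54 had enough counts to be tested and edgeR called 0 of them. At an unadjusted p under 0.05 there were 5 higher and 2 lower in DTR, beside the 5.52% and 5.45% of all genes given above. Groups did not overlap for 8 genes above and 4 below, beside 8.96% and 7.85% of all genes. The fit gave 28 higher and 26 lower, with a median of 0.030 beside 0.0082 over all genes.

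Other ligands and carriers were scarce. Igf2, the fetal growth ligand, had normalized counts of 33.5, 97.9 and 67.6 (WT) and 36.1, 167 and 138 (DTR), with overlapping groups and a fitted difference of 0.78 (SE 0.62; edgeR adjusted p = 0.654), or 0.097 with sex as a covariate. Igfals, which forms the circulating complex with IGFBP3, had 13.6 ± 2.96 (WT) and 14.3 ± 1.67 (DTR; SD, n = 3 each). The insulin genes Ins1 and Ins2, Igfbp1 and Igfbpl1 were below the filter on low counts.

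Pappa, which encodes the protease that cleaves IGFBP4 and releases IGF, had normalized counts of 306, 294 and 241 (WT) and 508, 331 and 590 (DTR). Every DTR library was above every WT library. The fitted difference was 0.77 (SE 0.23, 95% interval 0.23 to 1.30), and it missed the threshold with an adjusted p of 0.354 by edgeR and 0.0522 by DESeq2. Without DTR replicate 2 it was 0.97 with an edgeR adjusted p of 0.0353, and without DTR replicate 3 it was 0.58. The number of all genes called without DTR replicate 2 is given above. That fit sets DTR libraries with 0.396% and 0.745% of counts on the muscle list against WT libraries with between 2.19% and 3.00%. With the muscle covariate the Pappa difference was 0.36. Of 8 proteases and protease inhibitors tested, 5 were fitted higher and 3 lower, and edgeR called 0. There were 3 above without overlap, beside 8.96% of all genes.

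Inhibitors of receptor signalling were fitted on both sides of 0, and edgeR called none of them. Socs2, a feedback inhibitor of growth hormone and IGF1 signalling, had normalized counts of 2711, 2381 and 2882 (WT) and 3718, 3316 and 3556 (DTR). All DTR libraries were above all WT libraries, with a fitted difference of 0.41 (SE 0.097) and an adjusted p of 0.293 by edgeR and 0.0416 by DESeq2. Grb10, an imprinted adaptor that restrains the insulin and IGF1 receptors, had 9139, 11964 and 10964 (WT) and 14686, 13062 and 14896 (DTR). Its groups did not overlap either, with a fitted difference of 0.41 (SE 0.12) and an adjusted p of 0.356 by edgeR and 0.0721 by DESeq2.

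Grb14, a related adaptor that inhibits the insulin receptor, went the other way, with normalized counts of 1688, 1336 and 929 (WT) and 460, 845 and 380 (DTR). Every DTR library was below every WT library. In the fit, the difference was -1.23 (SE 0.38), with an adjusted p of 0.392 by edgeR and 0.00403 by DESeq2, and it was -0.69 with the muscle covariate. Without DTR replicate 2, in the fit described for Pappa, it was -1.65 with an edgeR adjusted p of 0.0447. Without WT replicate 1 it was -1.01. Within DTR, replicate 2 was highest for Grb14 and for the muscle list, at 2.69% against 0.396% and 0.745%. A list of 10 adipocyte genes took 0.0270%, 0.0326% and 0.0328% of the counts in WT and 0.0170%, 0.0283% and 0.0255% in DTR. In WT, Grb14 fell from replicate 1 to replicate 3 while this share rose. All 10 adipocyte genes were fitted lower (median -2.27) and 7 lay below without overlap, beside 7.85% of all genes. edgeR called 0 of the 10, and DESeq2 called 5 lower (Adipoq, Cidec, Cfd, Plin1 and Retn), beside 1.53% of all genes. The part of either tissue in the Grb14 difference was not tested further. Of the 9 inhibitors, 5 were fitted higher and 4 lower.

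**Figure D5:**
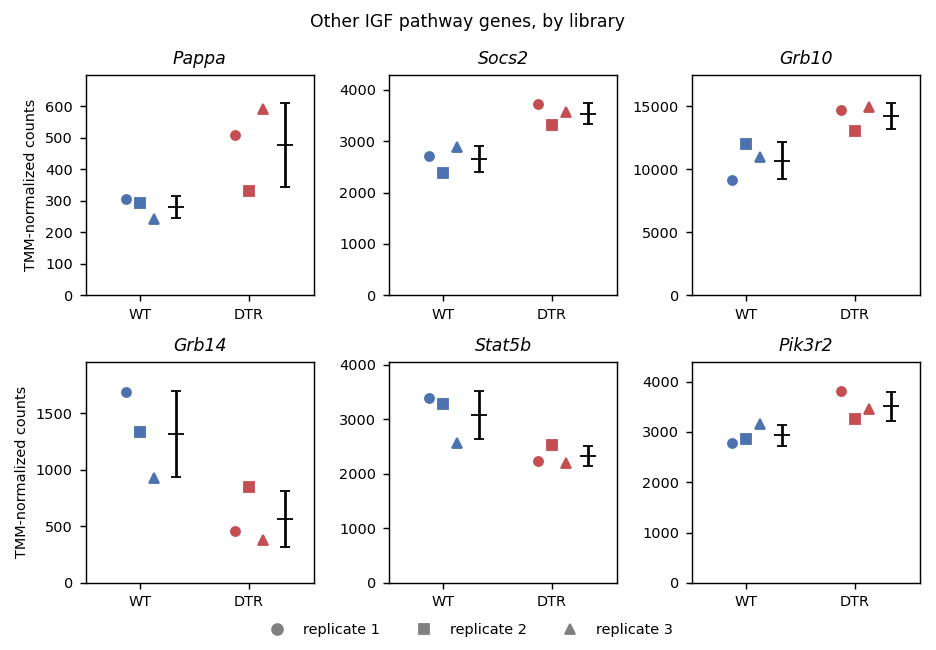
TMM-normalized counts (y axis, linear and from 0, its own scale in each panel) of 6 other IGF pathway genes in the WT (blue) and DTR (red) libraries, with marker shape for the replicate number and a black bar for the mean ± SD. The DTR libraries lie above the WT libraries for Pappa, Socs2, Grb10 and Pik3r2 and below them for Grb14 and Stat5b, and edgeR called none of the 6 after adjustment.

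Receptor adaptors and the PI3K, AKT and mTOR genes showed small differences. Of 7 receptors and adaptors tested, 4 were fitted higher and 3 lower, from -0.22 to 0.18. Irs1, the docking protein of the receptors, had normalized counts of 3804 ± 237 (WT) and 3867 ± 313 (DTR; SD, n = 3 each), a fitted difference of 0.024 (edgeR adjusted p = 0.947). Shc1, which links the receptor to RAS, had 3328 ± 34.7 (WT) and 3770 ± 358 (DTR; SD, n = 3 each), a fitted difference of 0.18 (edgeR adjusted p = 0.489). Of 21 PI3K, AKT and mTOR genes, 10 were fitted higher and 11 lower, from -0.22 to 0.26. The upper end was Pik3r2, a regulatory subunit of PI3K, with normalized counts of 2935 ± 206 (WT) and 3510 ± 287 (DTR; SD, n = 3 each; edgeR adjusted p = 0.421).

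The growth hormone axis, which controls Igf1 transcription in liver and other tissues, had 5 genes tested, of which 1 was fitted higher and 4 lower, with a median of -0.22. Stat5b, the transcription factor downstream of the growth hormone receptor, had normalized counts of 3392, 3282 and 2570 (WT) and 2245, 2534 and 2191 (DTR). DTR replicate 2 was just below WT replicate 3, and the groups did not overlap. The difference was fitted at -0.41 (SE 0.12), with an adjusted p of 0.354 by edgeR and 0.128 by DESeq2. Among binders of Igf2 mRNA, Igf2bp2 had normalized counts of 536 ± 71.1 (WT) and 452 ± 181 (DTR), and Igf2bp3 had 101 ± 25.2 and 142 ± 59.0 (SD, n = 3 each). Both overlapped between groups, with fitted differences of -0.25 and 0.49 and edgeR adjusted p of 0.782 and 0.611.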

How the data were processed

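Bulk RNA-seq of 3 DTR and 3 WT FDL tendons was analysed, each library a separate biological sample per the labels. The authors cleaned single-end reads with FastP, summed reads over genes with featureCounts and deposited the whole-number counts, not normalized. A second deposited table, a signal of normalized counts, equals each count column divided by 1 DESeq2 size factor (0.973 to 1.06). The aligner, genome build, annotation and strand setting are not given in the sources used here. For lengths, loci and sequences, symbols were matched to GENCODE vM21 on GRCm38 (97.8% of the tested genes, all 9 members).

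Counts were fitted with edgeR 4.0.16 in R 4.3.3 (filterByExpr by genotype, TMM, robust quasi-likelihood F test, Benjamini-Hochberg, threshold 0.05) over all 17496 genes passing the filter. The SE was the size of the log2 fold change over the root of F. Replicate libraries differed by a chi-square of at least 40.3 per degree of freedom, so none was a duplicate. Scripts were tested on simulated data.

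The alternatives were DESeq2 1.42.0, limma 3.58.1 with voom and with log2(deposited normalized count + 1), other scalings, other count filters, a replicate block, muscle and sex covariates, removal of muscle and keratinocyte genes, and each library left out. The members, pathway lists and marker lists were chosen with earlier results of these data known. Named genes were the 9 members, in each pathway list at most 4 genes with an unadjusted p under 0.05 or otherwise the 2 with the highest mean, and the 5 genes most like Igf1. One gene that the rule names is not reported here. Marker genes called by DESeq2 were named after their values were seen.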

Additional observations from a re-analysis of the deposited data

How the results depend on the processing

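None of the 9 genes was called under any of the 18 alternatives, and Igf1r, Igf2r, Igfbp5, Igfbp6 and Igfbp7 kept their direction in all 18. The number of genes called among all tested was 0 with edgeR, 466 with DESeq2 (197 higher, 269 lower), 83 without a filter on low counts and 1 with the replicate number as a block, and it ranged from 0 to 544 when 1 library was left out, with 544 called without DTR replicate 2. Pathway genes called numbered 2 with DESeq2 (Socs2, Grb14), and from 0 to 2 when 1 library was left out, with Pappa and Grb14 called without DTR replicate 2. The 1 gene without overlap, Igf1r, became 0 with DESeq2 size factors, the deposited normalized counts, RLE, upper quartile, library size only, a minimum of 10 counts in every library, and without muscle and keratinocyte genes. The count ranged from 1 to 3 when 1 library was left out, being 2 without WT replicate 1, WT replicate 2 or DTR replicate 1, and 3 without DTR replicate 2, where Igf1 and Igfbp4 joined it above WT. Groups of 3 against 2 libraries separate more easily, and the share of all genes without overlap is not given for them. These counts are therefore not read as a result about the members. The ratio of summed IGFBP to Igf1 was 13.5, 3.82 without a length and 2.25 with coding lengths.

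Directions turned with the muscle covariate for Igf1 (-0.12), Igfbp4 (-0.16) and Irs1 (-0.098), with the sex covariate for Igfbp3 (0.063) and with library size only for Irs1 (-0.0037). With 1 library left out, Igf1 ranged from 0.048 (without DTR replicate 1) to 0.39 (without DTR replicate 2) and kept its direction, while Igfbp2 ranged from -1.86 (without DTR replicate 1) to 0.38 (without WT replicate 1), Igfbp3 from -0.43 (without DTR replicate 1) to 0.28 (without DTR replicate 2), Igfals from -0.082 to 0.22, Irs1 from -0.042 to 0.080 and Igf2bp2 from -0.57 to 0.023. None of these values was past the threshold, and the cause was not tested. With 3 libraries a group, the 95% interval of the fitted difference spans a fold of 0.788 to 1.06 for Igf1r and of 0.0639 to 4.71 for Igfbp2. Differences within such intervals are not excluded by these libraries. Same-numbered DTR and WT libraries did not deviate from their group means together (correlations -0.19, -0.15 and -0.68). With 3 libraries a group, these correlations cannot settle whether the replicate numbers pair samples. The block called no member.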
